A study of Mus musculus with 12 samples.

Results

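Freshly isolated CD8+CD28low regulatory T cells from mice that lack Aire (native KO) were compared with the same cells from wild-type mice (native WT), both of the C57Bl/6 strain and without any culture. The arrays were chosen by their titles, and they make up 6 of the 12 arrays of the series, 3 in each group. The other 6 arrays hold cells of the same genotypes after 96 h of culture with allogenic antigen-presenting cells and an antibody to CD3 (activated), and they enter only the comparison of the states. The labels call the arrays of a group biological replicates but do not give the age or sex of the animals, the organ, the way the cells were isolated or how many mice stand behind an array. The labels describe the mice only as Aire knockouts and name no allele, and an effect on the T cells themselves and an effect of the animal they grew in cannot be told apart. The p-values measure the spread between these arrays.

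Aire is a transcriptional regulator of thymic epithelial cells, where it drives the display of proteins that belong to other tissues so that T cells reacting to them can be removed or turned into regulatory cells. CD8+CD28low T cells are a population with little of the costimulatory receptor CD28 on the surface that can hold back immune responses, among them in the inflamed gut. T cells of this kind that have met antigen often carry receptors known from natural killer (NK) cells and make cytokines, chemokines and granzymes quickly.

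RNA levels are log2 expression values, so a difference of 1 is a doubling, and differences are always native KO minus native WT with the standard error of a limma fit of the 6 native arrays, 3 per group. Levels were measured for 19938 genes. The background level of an array was taken as the 95th percentile of its 1016 olfactory receptor genes, whose products belong to the nose, and lay between 6.13 and 6.42 on the 6 arrays. Of all genes, 9229 lay above it on all 3 arrays of at least 1 native group. Within a group, Pearson's r between any pair of arrays, taken across genes, was 0.990 or more. The labelled cell type was borne out by its markers: Cd8a lay between 12.37 and 12.70 and Cd3e between 12.79 and 12.91 on the 6 arrays, while Cd4 stayed under background on all of them. Cd28 RNA was well above background in both groups, at 11.03, 11.97 and 11.58 on KO arrays 1, 2 and 3 and at 11.36, 11.94 and 11.21 on WT arrays 1, 2 and 3. These are RNA levels and say nothing of the receptor on the surface. Foxp3, the transcription factor of CD4 regulatory T cells, lay at 6.25 to 6.44, about the background level.

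Transcripts that mark sex differed between the arrays, and they are given before the results because they touch all of them. Xist RNA, which coats and silences the inactive X chromosome, was under background on KO array 1 (5.26). On the other KO arrays it lay at 9.97 and 10.22, and WT arrays 1, 2 and 3 had 10.70, 10.98 and 10.76. The mean of the Y-linked genes Kdm5d, Uty and Eif2s3y was highest on KO array 1 (9.46). It was 8.81 on KO array 2, 8.92 on KO array 3 and 8.69, 8.23 and 8.07 on the WT arrays in the order of their numbers. All 3 of these genes lay above background on all 6 arrays, so 5 of the 6 arrays showed both Xist and Y-linked RNA. Other Y-linked genes did not share the rise: Sry, above background on all 6 arrays, differed by -0.14 ± 0.10. Zfy2, near background, differed by -0.24 ± 0.17, and Usp9y and Zfy1 lay under background on all 6 arrays. The part of sex in the differences below was not tested. Values without 1 array are given for a part of the genes, and their absence does not mean that a difference was stable.

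**Figure D1:**
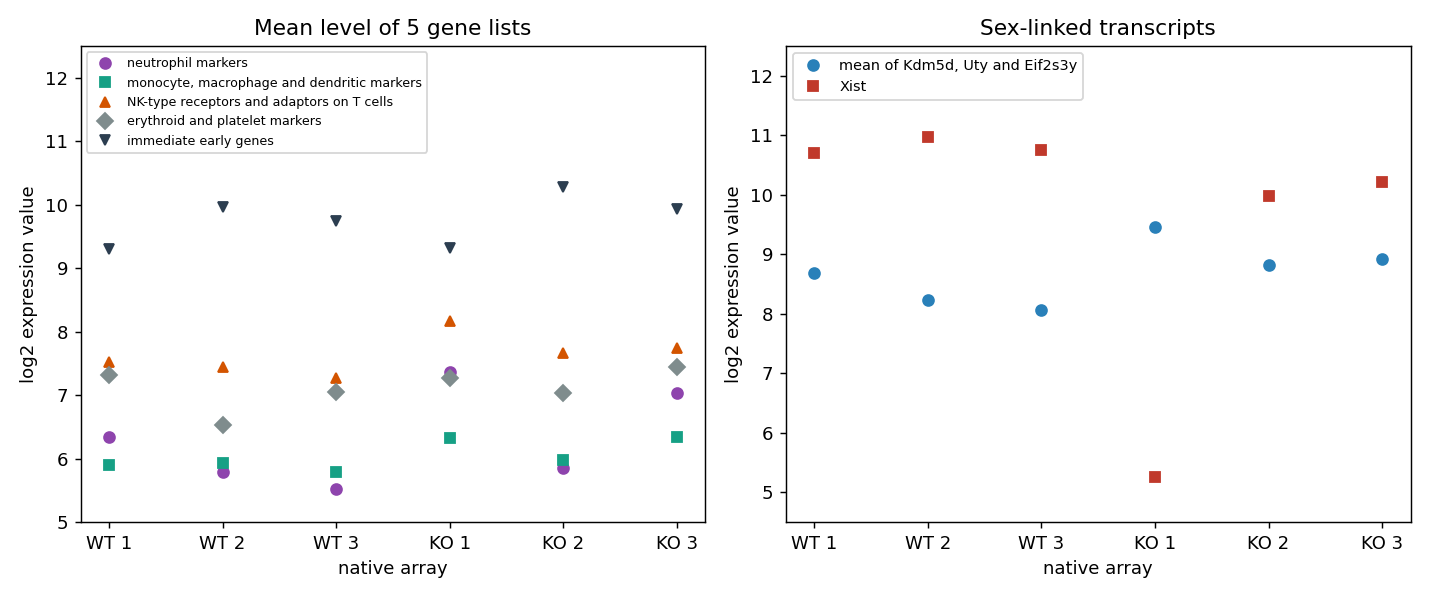
Left: mean log2 level of 5 gene lists on each of the 6 native arrays. Right: Xist and the mean of Kdm5d, Uty and Eif2s3y on the same arrays. KO array 1 stands alone with Xist at 5.26, and the neutrophil list is highest on KO arrays 1 and 3 (7.36 and 7.03).

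Aire itself gave no signal by which the genotype could be checked. Its level was 5.61, 5.73 and 5.73 on the KO arrays and 5.83, 5.92 and 5.70 on the WT arrays, under background on all 6, and the difference was -0.13 ± 0.09. The gene lies on chromosome 10 in the gene table of GRCm38.p6. Of the 3 measured genes nearest to it on each side (Trpm2, Cfap410, Pfkl, Dnmt3l, Icosl and Gatd3a) Icosl had the largest difference. Icosl encodes the ligand of the costimulatory receptor ICOS and starts 39.3 kb from the start of Aire, at chr10:78069368-78079525. It lay at 6.19, 6.26 and 6.53 on KO arrays 1, 2 and 3 and at 6.72, 6.85 and 6.62 on WT arrays 1, 2 and 3. The groups did not overlap (-0.40 ± 0.11), only KO array 3 was above background among the KO arrays, and the adjusted p did not pass. In the other 5 neighbours the difference ran from -0.01 (Pfkl) to -0.13 (Cfap410), and Trpm2 and Dnmt3l were under background on all 6 arrays.

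Across all genes, limma called 0 of 19938 in the 6 native arrays (0% of genes; adjusted p under 0.05), with 491 at an unadjusted p under 0.05 (2.46%), or 926 without KO array 1. The smallest adjusted p was 0.118, shared by Ceacam1, Retnlg and Igha. Deviations from the group means correlated at 0.580, 0.396 and 0.157 for the arrays of replicates 1, 2 and 3. The last lies little above the highest value for arrays of different numbers (0.130). A second fit took the number as a block, so that each KO array is set against the WT array of its number. This paired fit called 14 genes, all higher in KO cells (0.0702% of genes higher and 0% lower), with 1097 genes at an unadjusted p under 0.05. Without regard to pairs, all 3 KO arrays lay above all 3 WT arrays for 2.12% of genes and below them for 4.92%. All 3 numbered pairs pointed up for 8.95% of genes and down for 17.2%. Among the 9229 genes above background the groups were apart with KO higher for 1.94% and lower for 3.6%, and all 3 pairs pointed up for 10.6% and down for 18.3%. A difference above 0 was found in 40.1% of genes, with a median of -0.02 over all genes. The 14 genes fell into 5 kinds: receptors and adaptors shared with NK cells (Fcer1g, Ncr1), secreted mediators and other effector genes (Ifng, Xcl1, Ctla2b, Cxcr5), membrane proteins induced by interferon (Ifitm2, Ifitm3), transcripts of granulocytes and antibody-secreting cells (Retnlg, Ceacam1, Igha, Jchain), and the Y-linked Kdm5d and Uty. Without the arrays of replicate 1, among them the KO array with no Xist signal, the paired fit of the other 4 arrays still called 4 of the 14, Retnlg, Jchain, Igha and Ceacam1. That fit called 8 genes in all. Without the arrays of replicate 2 all 14 were called again, among 155 genes. The same held without those of replicate 3, among 111 genes. These fits reuse the arrays from which the 14 were chosen, so the repeated calls are no separate support.

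**Figure D2:**
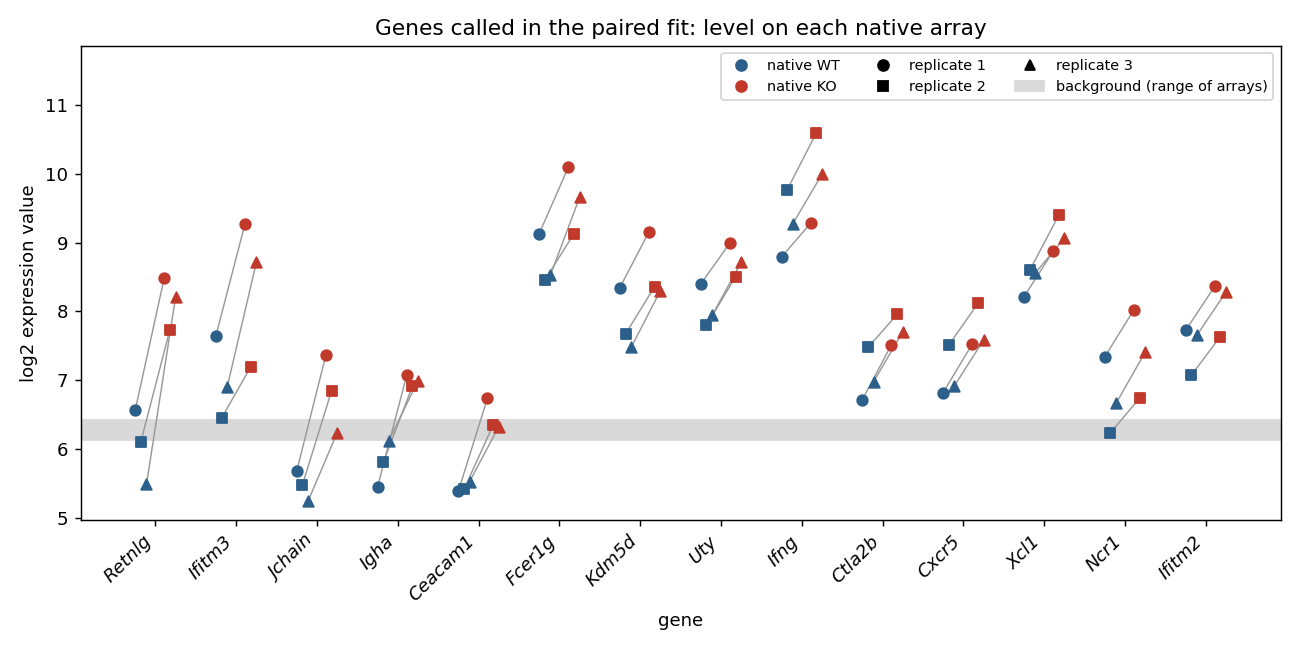
Log2 level of the 14 genes called in the paired fit on each native array, with grey lines joining arrays of the same replicate number and the grey band giving the range of the background level. Every line runs upwards from WT to KO; the groups overlap for Kdm5d, Ifitm3, Ifitm2, Ncr1 and Ifng.

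Receptors and adaptors first known from NK cells had differences above 0 throughout the list. The paired fit called 2 of them, against 14 of all 19938 genes (0.0702%), and the unpaired fit called 0 of either. These receptors and adaptors include the NKG2 and Ly49 families, which bind MHC class I relatives, and the short chains through which they signal. Of 20 measured, all 20 had a difference above 0 (against 40.1% of all genes), with a median of 0.42. In 9 of the 20 the groups did not overlap, all with KO higher (2.12% of all genes), and in 14 all 3 pairs pointed up (8.95% of all genes); 17 of the 20 lay above background in at least 1 group. The largest differences belonged to the signalling chains. Fcer1g, a chain that couples Fc and NK receptors to kinases, lay at 10.10, 9.13 and 9.66 on KO arrays 1, 2 and 3 and at 9.13, 8.45 and 8.53 on WT arrays 1, 2 and 3. The lowest KO array thus equalled the highest WT array to 2 decimals and lay just above it. The difference was 0.92 ± 0.24, a 1.90-fold level, with an adjusted p of 0.0193 in the paired fit. It was 0.69 without KO array 1 and 1.17 without KO array 2. Tyrobp, the DAP12 adaptor, differed by 1.02 ± 0.25 with no overlap and missed the paired threshold (adjusted p = 0.0803). Ncr1, the activating receptor NKp46, lay at 8.02, 6.74 and 7.41 in KO and 7.34, 6.23 and 6.66 in WT cells. Its groups overlapped, but each KO array lay above the WT array of its number, and it was called in the paired fit (0.64 ± 0.08 in that fit, adjusted p = 0.0434). Without KO array 1 its unpaired difference was 0.33, without WT array 2 it was 0.39, and without KO array 2 it was 0.97.

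The NKG2 receptors followed. Klrc1, the inhibitory chain NKG2A, lay at 9.29, 9.09 and 8.996 on KO arrays 1, 2 and 3 and at 8.09, 8.79 and 8.27 on WT arrays 1, 2 and 3, so that the groups did not overlap (0.74 ± 0.17, paired adjusted p = 0.242). Klrk1, the activating receptor NKG2D, differed by 0.55 ± 0.17, also without overlap, and by 0.36 without WT array 3. Klra8, the Ly49H receptor, differed by 0.54 ± 0.23 and by 0.24 without KO array 1. Members of the Ly49 family are close in sequence, and whether the probes tell them apart was not tested. The median of the whole group was 0.28 without KO array 1. A list of markers of NK cells themselves, which shares genes with this one, had 10 of 12 differences above 0 and a median of 0.28, or 0.10 without KO array 1 and 0.13 without WT array 3; the share of NK cells in the samples was not tested. Fcer1g and Tyrobp are also made by myeloid cells, and the neutrophil list described further on was highest on the same KO arrays, 1 and 3; its part in these values was not tested. In the pairs of replicates 1, 2 and 3 the median of the NK-type group was 0.69, 0.24 and 0.48. That of the neutrophil list was 0.94, 0.00 and 0.95, so both were smallest in the pair of replicate 2.

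Secreted mediators of effector T cells were the next group. Ifng encodes interferon gamma, the main macrophage-activating cytokine of CD8 T cells. It lay at 9.28, 10.60 and 9.998 on KO arrays 1, 2 and 3 and at 8.80, 9.77 and 9.28 on WT arrays 1, 2 and 3. The groups overlapped because both arrays of replicate 1 were low and both of replicate 2 high, while the step within each number was similar. The difference was 0.68 ± 0.32 unpaired and 0.68 ± 0.09 paired (paired adjusted p = 0.0434); it was 0.36 without KO array 2, 0.43 without WT array 1 and 1.02 without KO array 1. Xcl1, a chemokine that draws cross-presenting dendritic cells, lay at 8.87, 9.40 and 9.07 in KO and 8.21, 8.60 and 8.56 in WT cells with no overlap (0.66 ± 0.15, paired adjusted p = 0.0434). Ccl3, an inflammatory chemokine, lay at 11.14, 11.57 and 11.30 in KO and at 10.73, 10.80 and 10.34 in WT cells, again without overlap, and did not pass (0.71 ± 0.15, paired adjusted p = 0.085). Ccl4 differed by 0.36 ± 0.21 and by 0.16 without KO array 2. Of 8 measured chemokines 7 had a difference above 0, with a median of 0.34 that was 0.18, 0.20 and 0.22 without KO array 2, WT array 1 and WT array 3. Of 15 measured cytokines 10 did, with a median of 0.03, and 7 of the 15 were at background in both groups, among them Il2, Il4 and Il10. Lta, lymphotoxin alpha, was the 1 cytokine whose groups did not overlap (0.30 ± 0.10).

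Among cytotoxic granule genes, 15 of 18 had a difference above 0, with a median of 0.16, which ran from 0.11 without KO array 1 to 0.28 without KO array 2. Ctla2b, a gene of activated T cells that encodes a cysteine protease inhibitor, was called in the paired fit (0.67 ± 0.18 unpaired, paired adjusted p = 0.0434), with no overlap between 7.52, 7.96 and 7.70 in KO and 6.71, 7.48 and 6.98 in WT cells. It has a close relative, Ctla2a, and the probes may share signal. Fasl, the death ligand, differed by 0.51 ± 0.18 and Gzmb, granzyme B, by 0.51 ± 0.21; Gzmb lay lower in KO than in WT on the arrays of replicate 2 (8.58 against 8.78), and its difference was 0.31 without WT array 3. The difference of Fasl was 0.35 without WT array 3 and 0.74 without WT array 2. Perforin (Prf1) differed by 0.12 ± 0.23, less than its error. Cxcr5, the chemokine receptor that leads cells into B cell follicles, was called in the paired fit (0.66 ± 0.20 unpaired, paired adjusted p = 0.0278). It lay at 7.53, 8.12 and 7.58 on KO arrays 1, 2 and 3 and at 6.82, 7.51 and 6.92 on WT arrays 1, 2 and 3, so the lowest KO array exceeded the highest WT array by a small margin. Cxcr3, the receptor of inflamed tissue, differed by 0.42 ± 0.15 and Ccrl2 by 0.36 ± 0.13, each higher in all 3 pairs, and neither passed. Of 15 measured chemokine receptors 8 had a difference above 0, with a median of 0.06 that ran from -0.05 without KO array 3 to 0.14 without KO array 2.

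Membrane proteins of the Ifitm family, which block the entry of viruses into cells and are induced by interferons, included a further pair of called genes, Ifitm2 and Ifitm3. Their genes Ifitm1, Ifitm2 and Ifitm3 lie close together on chromosome 7. The stretches from 150 bases before to 30 bases after their annotated starts (RefSeq, GRCm38.p6) are shown because all 3 pairs pointed up for each of these neighbours and because an interferon-stimulated response element is a known feature of such promoters; capitals mark each match, on either strand, to a pair of GAAA repeats with any 2 bases between them. The stretches are chr7:140967926-140968105 on the plus strand for Ifitm1 and, on the minus strand, chr7:140955932-140956111 for Ifitm2 and chr7:141010715-141010894 for Ifitm3. For Ifitm3 the start used is the outer end of the gene. That of Ifitm1 (140968076) lies inside the gene, which begins at 140967429. That of Ifitm2 (140955961) also lies inside its gene, whose outer end is at 140959686. Stretches at those outer ends were not searched, so the matches hold for the starts used.
Ifitm1: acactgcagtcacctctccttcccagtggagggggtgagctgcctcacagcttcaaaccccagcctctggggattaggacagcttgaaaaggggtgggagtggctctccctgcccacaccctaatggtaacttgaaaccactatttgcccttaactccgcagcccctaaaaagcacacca
Ifitm2: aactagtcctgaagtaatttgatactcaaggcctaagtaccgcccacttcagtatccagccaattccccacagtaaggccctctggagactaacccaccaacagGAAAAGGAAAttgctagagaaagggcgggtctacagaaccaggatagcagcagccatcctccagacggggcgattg
Ifitm3: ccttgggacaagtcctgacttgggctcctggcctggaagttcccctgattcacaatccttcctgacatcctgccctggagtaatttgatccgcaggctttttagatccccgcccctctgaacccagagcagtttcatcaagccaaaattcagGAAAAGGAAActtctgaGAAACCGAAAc
Ifitm2 held 1 match, at positions -46 to -37 from the start, and Ifitm3 held 2, at bases 3 to 12 and 20 to 29 after it; Ifitm1 held none in this window. The same motif was found in 1.9% of 32851 promoter stretches of that length. A second motif, TTCNNNGAA with N for any base, which STAT factors can bind, matched once, in Ifitm3, where it overlaps the second element, and in 4.94% of all stretches. A match is a description of the sequence and not evidence of binding.

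Ifitm3 lay at 9.28, 7.19 and 8.72 on KO arrays 1, 2 and 3 and at 7.65, 6.45 and 6.91 on WT arrays 1, 2 and 3. KO arrays 1 and 3 exceeded all WT arrays and KO array 2 did not. The difference was 1.39 ± 0.47, a 2.63-fold level, and was called in the paired fit (adjusted p = 0.0394). It was 0.95 without KO array 1 and 2.00 without KO array 2. Ifitm2 lay at 8.36, 7.63 and 8.28 in KO and at 7.72, 7.07 and 7.65 in WT cells (0.61 ± 0.22, paired adjusted p = 0.0394); without WT array 2 its difference was 0.40. Ifitm1 differed by 0.39 ± 0.12 and Ifitm10 by 0.23 ± 0.08, both with no overlap and neither called. Of 8 measured genes, the Ifitm family and Bst2, another interferon-induced membrane protein, 7 had a difference above 0, with a median of 0.31. The largest difference was that of Ifitm6 (1.503 ± 0.61, paired adjusted p = 0.311), named after its values were seen. It lay at 8.67, 5.66 and 7.45 on KO arrays 1, 2 and 3 and at 6.40, 5.52 and 5.36 on WT arrays 1, 2 and 3, with KO array 2 and WT arrays 2 and 3 under background. Ifitm3 is also made by myeloid cells, and the mean of the neutrophil list was likewise highest on KO arrays 1 and 3 (7.36 and 7.03); the part of such cells was not tested. Ifitm2 and Ifitm3 are similar in sequence, and their probes may share signal.

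Other genes induced by interferon were split between the directions. Of 30 measured interferon-stimulated genes 15 had a difference above 0, the median was 0.00 (-0.16 without KO array 1 and -0.13 without WT array 2), and the groups did not overlap for 1 gene, which was lower. Over all genes 2.12% were apart with KO higher and 4.92% with KO lower. All 3 pairs pointed up for 6 of the 30 (8.95% of all genes) and down for 8 (17.2% of all genes). Several with large differences lay lower in KO cells in all 3 pairs. Usp18, which removes the ubiquitin-like protein ISG15 and dampens interferon receptor signals, lay at 8.88, 7.96 and 8.24 on KO arrays 1, 2 and 3 and at 9.24, 8.63 and 9.11 on WT arrays 1, 2 and 3 (-0.63 ± 0.23). Oas2, a sensor of double-stranded RNA, differed by -0.65 ± 0.29, and by -1.02 without KO array 1 or -0.44 without KO array 3. Ifi27l2a, a small interferon-induced protein, differed by -0.49 ± 0.16. Rsad2, the antiviral protein viperin, pointed the other way (0.42 ± 0.30, and 0.16 without WT array 2). None of these 4 passed in either fit, with paired adjusted p from 0.116 (Usp18) to 0.537 (Rsad2).

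Of 10 measured genes of tissue residence and gut homing 7 had a difference below 0, as had 11939 of all 19938 genes, and 0 were called. Itgae encodes CD103, the integrin chain with which T cells hold on to epithelial cells of the gut. It lay at 9.62, 9.49 and 9.73 on KO arrays 1, 2 and 3 and at 10.35, 9.91 and 10.12 on WT arrays 1, 2 and 3. All KO arrays lay below all WT arrays, and the difference was -0.51 ± 0.12, a 0.70-fold level (paired adjusted p = 0.178). Ccr9, the receptor for the small-intestinal chemokine CCL25, lay at 11.17, 10.46 and 10.39 in KO and at 11.62, 10.74 and 11.08 in WT cells. It was lower in all 3 pairs with overlapping groups (-0.48 ± 0.25), and its difference was -0.24 without WT array 1 and -0.73 without KO array 1. Itga4, the integrin chain alpha-4, which forms a receptor for the gut vessel ligand MAdCAM, differed by -0.24 ± 0.14, with -0.12 without WT array 2 and -0.41 without WT array 3. In this list 5 genes were lower in all 3 pairs, where 17.2% of all genes were; the median was -0.15, and it lay between -0.16 and -0.12 when any single array was left out. Gpr174, a lysophosphatidylserine receptor of lymphocytes, was the member with no overlap on the higher side (0.19 ± 0.09).

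Tgfbr3, betaglycan, a co-receptor that presents TGF-beta to its signalling receptors, had, in the unpaired fit, the smallest p of the genes that were above background and lower in KO cells; in the paired fit Usp18 had it. It lay at 8.02, 8.14 and 8.09 on KO arrays 1, 2 and 3 and at 8.54, 8.44 and 8.49 on WT arrays 1, 2 and 3, with a spread within each group smaller than the step between them. The difference was -0.41 ± 0.08, with an unadjusted p of 0.000664 and a paired adjusted p of 0.251. The other members of the TGF-beta list stayed close to WT: 4 of 16 had a difference above 0, the median was -0.03, and Tgfb1, the ligand, differed by 0.03 ± 0.10. The 10 largest differences below 0 with groups apart, among genes above background, were those of Xist and, from -0.51 to -0.38, Itgae, Rflnb, Ankrd55, Gria3, Tgfbr3, Cpm, Icosl, Krtap5-1 and Mtss1. Rflnb encodes a partner of filamin, Cpm a membrane carboxypeptidase, Mtss1 a protein that shapes membranes with actin, and Gria3 a glutamate receptor subunit. Gria3 and Xist are X-linked, and the difference of Xist (-2.33 ± 1.06) was -0.71 without KO array 1.

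**Figure D3:**
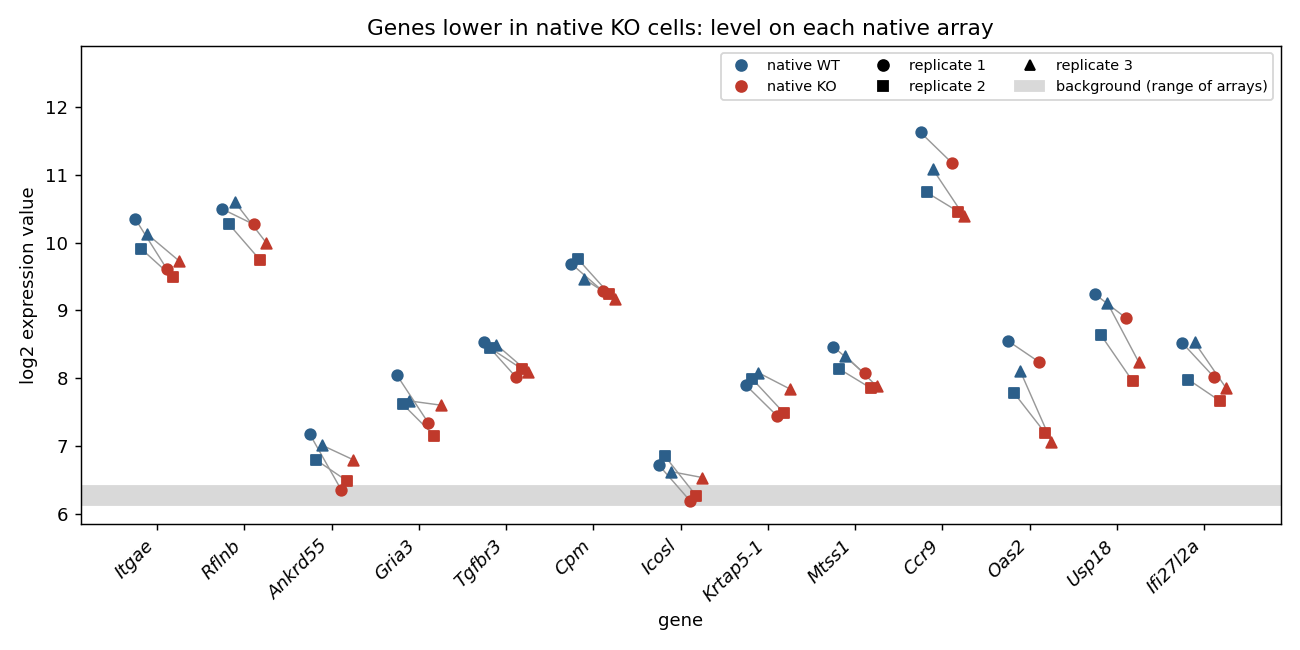
Log2 level on each native array of 9 of the 10 genes with the largest differences below 0 and groups apart (Xist left out) and of Ccr9, Oas2, Usp18 and Ifi27l2a; symbols, lines and the grey band as in the plot of the called genes. The lines run downwards in all 3 pairs of each gene, and for Itgae and Tgfbr3 the lowest WT array lies above the highest KO array.

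Among genes of regulatory T cells 13 of 18 had a difference above 0, with a median of 0.11, and the groups did not overlap for 5, all higher (2.12% of all genes). Il2ra, the alpha chain of the interleukin-2 receptor, lay at 7.15, 6.99 and 7.39 in KO and 6.95, 6.79 and 6.42 in WT cells (0.46 ± 0.15). Its difference was 0.31 without WT array 3. Entpd1, the ectonucleotidase CD39, differed by 0.38 ± 0.11 and Tnfrsf9, the costimulatory receptor 4-1BB, by 0.32 ± 0.11, both without overlap. Foxp3 (-0.03 ± 0.09) and Ikzf2 (-0.08 ± 0.17), the factors that define CD4 regulatory cells, differed by less than their errors. None of these passed in either fit. In the list of inhibitory receptors, 12 of 15 had a difference above 0, with a median of 0.12. Lilrb4a, an inhibitory receptor of the immunoglobulin family, had the largest difference (0.75 ± 0.27, paired adjusted p = 0.0701). Tigit, which competes with an activating receptor for CD155, was higher in all 3 pairs (0.35 ± 0.17, and 0.19 without KO array 2). Ctla4, which takes CD28 ligands away from other cells, differed by 0.29 ± 0.19 and by 0.15 without KO array 2.

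Genes of effector and memory cells differed little, in both directions. Of 15 measured transcription factors 9 had a difference above 0, with a median of 0.11, which ran from 0.03 without WT array 3 to 0.24 without WT array 2. Eomes, a T-box factor of memory CD8 and NK cells, lay at 10.34, 10.54 and 10.26 on KO arrays 1, 2 and 3 and at 10.05, 10.24 and 9.92 on WT arrays 1, 2 and 3, with no overlap (0.31 ± 0.11). Bhlhe40, a factor of tissue-resident cells, differed by 0.61 ± 0.40, less firmly, since both arrays of replicate 2 were high (9.50 and 9.28); it was 0.30 without WT array 1 or KO array 2 and 1.10 without WT array 2. Hopx, a homeodomain protein of effector and memory cells, differed by 0.30 ± 0.16 and by 0.11 without KO array 2. Surface receptors of such cells were higher in 11 of 15 cases, median 0.09, or 0.20 without WT array 2. Il18rap, a chain of the interleukin-18 receptor, was higher in all 3 pairs (0.46 ± 0.17), as were Cd44, an adhesion receptor kept after antigen encounter (0.44 ± 0.21, with 0.23 without WT array 1 and 0.71 without WT array 2), and Il12rb2 (0.36 ± 0.17, and 0.17 without KO array 1). Anxa2, an annexin (0.50 ± 0.12), and Lgals3, the lectin galectin-3 (0.63 ± 0.17), came from the list of S100, annexin and galectin genes, in which 13 of 15 differences were above 0 with a median of 0.11, and their groups were apart. Naive and central memory genes leaned the other way: 4 of 14 had a difference above 0, with a median of -0.06, close to that of all genes. Actn1 (-0.19 ± 0.08) and the chromatin organiser Satb1 (-0.14 ± 0.08) were lower with no overlap. Themis, a signalling protein of developing T cells, was lower in all 3 pairs (-0.22 ± 0.10). None passed in either fit.

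**Figure D4:**
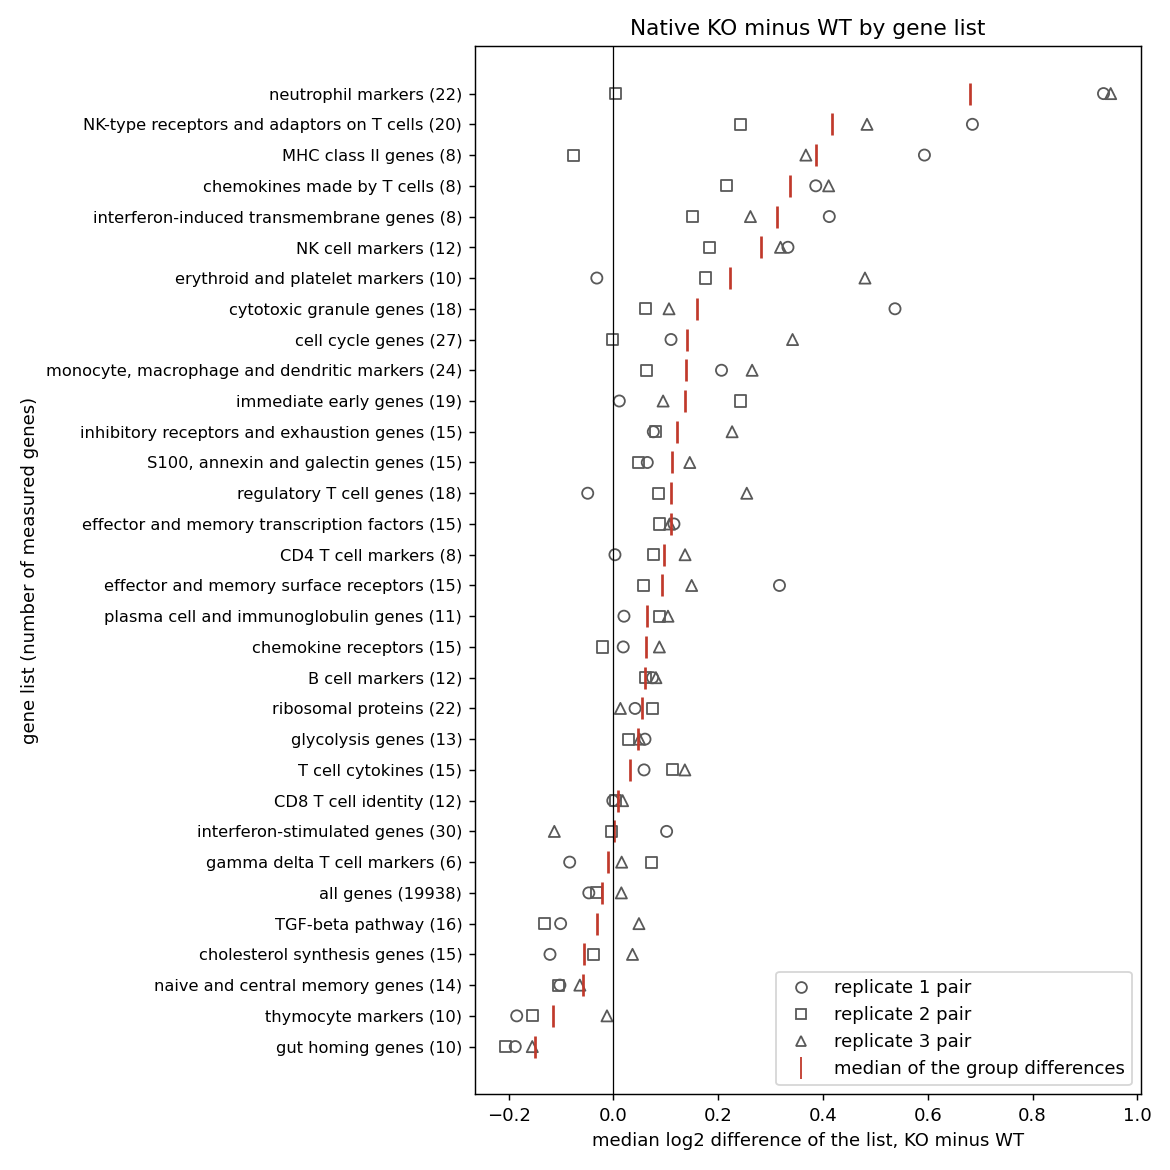
Median log2 difference, native KO minus WT, of each gene list (measured genes in brackets); open symbols give the 3 same-numbered pairs and the red tick the median of the group differences. The pairs of the NK-type receptors all lie to the right of 0 (0.24 to 0.69) and those of the gut homing genes all to its left, while the neutrophil list is at 0.00 in the pair of replicate 2.

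Transcripts that belong to other blood cells were measured on the same arrays. In a bulk sample fewer cells of a type and less RNA per cell cannot be told apart. Of 22 measured neutrophil markers 21 had a difference above 0, with a median of 0.68, but 4 lay above background on all 3 arrays of a group, and Prtn3, Cxcr2, Csf3r, Stfa3, Chil3 and Padi4 lay at background on all 6 arrays. Averaged over its genes, the list reached 7.36, 5.85 and 7.03 on the KO arrays, in the order of their numbers, against 6.35, 5.80 and 5.52 on the WT arrays. It was thus high on 2 of 3 KO arrays, with the third among the WT arrays, and the list median was 0.27 without KO array 1 and 1.05 without KO array 2. Retnlg, a resistin-like protein of granulocytes, lay high on all 3 KO arrays, at 8.49, 7.74 and 8.21 against 6.56, 6.10 and 5.48 on WT arrays 1, 2 and 3. The difference was 2.10 ± 0.26, a 4.27-fold level, with an adjusted p of 0.118 unpaired and 0.0112 paired; WT arrays 2 and 3 lay under background, so its size rests in part on values there. Ngp, a granule protein, lay at 11.09, 7.26 and 10.34 in KO and 8.77, 7.03 and 5.43 in WT cells. Its difference of 2.49 ± 0.99 has a KO array among the WT values, as has that of Lcn2, lipocalin-2 (2.34 ± 1.05, and 1.49 without KO array 1 or WT array 3). Lyz2, lysozyme, lay at 9.62, 6.51 and 9.02 in KO and at 7.03, 6.32 and 5.24 in WT cells (2.19 ± 0.71). Its difference was 1.57 without KO array 1 and 3.13 without KO array 2.

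Of 24 measured monocyte, macrophage and dendritic markers 20 had a difference above 0, with a median of 0.14, but 12 were at background on all 6 arrays, among them Csf1r, Cd14 and Adgre1. Their mean level was 5.97 to 6.34 on the KO arrays and 5.79 to 5.93 on the WT arrays. Of 8 MHC class II genes 7 had a difference above 0, with a median of 0.39, or 0.19 over the 5 above background. Cd74, the invariant chain, lay at 8.83, 6.97 and 7.83 in KO and 6.76, 7.39 and 5.85 in WT cells (1.21 ± 0.46), with KO below WT on the arrays of replicate 2 and a difference of 0.73 without KO array 1 and 0.80 without WT array 3. H2-Eb1 was the class II gene with groups apart on the higher side (0.58 ± 0.17).

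Several antibody transcripts lay higher on all KO arrays, while 8 of 11 measured plasma cell and immunoglobulin genes had a difference above 0, with a median of 0.06 (0.03 without KO array 2, 0.14 without WT array 2) or 0.28 over the 6 above background. Igha, the constant region of immunoglobulin A, lay at 7.07, 6.91 and 6.99 on KO arrays 1, 2 and 3 and at 5.45, 5.80 and 6.12 on WT arrays 1, 2 and 3. All WT arrays were under background and all KO arrays above it, so the difference is at least 0.73 (adjusted p = 0.118 unpaired, 0.0193 paired). Jchain, which joins the units of secreted antibody, lay at 7.36, 6.84 and 6.23 in KO and 5.68, 5.48 and 5.24 in WT cells, a difference of at least 0.55 (paired adjusted p = 0.0119); KO array 3 was under background as well. Ighm, the constant region of immunoglobulin M, lay at 7.81, 7.26 and 7.11 in KO and at 6.28, 6.81 and 6.37 in WT cells (0.91 ± 0.19, paired adjusted p = 0.24), and the variable segment Igkv8-30 differed by at least 0.56, resting mainly on KO array 1 (7.63 against 6.45 and 6.39 on the other KO arrays). Of 12 measured B cell markers 9 were at background on all 6 arrays, among them Ms4a1 and Pax5, and the list median was 0.06. Among other T cell kinds, 5 of 8 CD4 T cell markers, 3 of 6 gamma delta T cell markers and 1 of 10 thymocyte markers had a difference above 0, with medians of 0.10, -0.01 and -0.11. Ceacam1, an adhesion molecule found on activated T cells, granulocytes and epithelial cells, had the smallest unadjusted p of all genes (9.06e-06). It lay at 6.74, 6.34 and 6.32 in KO and at 5.38, 5.41 and 5.52 in WT cells; with all WT arrays and KO array 3 under background, the difference is at least 0.21 (paired adjusted p = 0.0193). Kdm5d (0.77 ± 0.26, and 0.50 without KO array 1; paired adjusted p = 0.0193) and Uty (0.69 ± 0.17; paired adjusted p = 0.0274), both on the Y chromosome, follow the sex-linked pattern described above.

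The same genes were then looked up in the activated arrays, which share no array with the native comparison. Activated KO array 3 stood apart, with a background level of 7.31 against 6.16 to 6.72 on the other activated arrays, and activated KO array 1 lacked the Xist signal (4.98) as native KO array 1 did; their part was not tested. Of the 14 called genes Retnlg, Jchain, Ceacam1 and Ncr1 were under background on all 6 activated arrays, which leaves no direction to read. Activated KO minus activated WT was above 0 for the other 10, with a median of 0.51 against 0.69 in native cells. It was above 0 for 32.3% of the 10573 genes with signal on at least 1 activated array. Without activated KO array 3 it was above 0 for 8 of the 10 and for 72.9% of those genes, so the share among all genes turned with this array and the count of 10 cannot be read as particular to the called genes. Ifitm3 differed by 1.10 ± 0.84 and Xcl1 by 1.08 ± 0.42 after activation, with wide errors. The activated groups were apart for 0 of the 14, and among all 19938 genes for 171 with KO higher and 177 with KO lower. Leaving out activated KO array 3, they were apart with KO higher for 3 of the 10 and for 1139 of the 10573 genes. Of the 10 genes with the largest native differences below 0, Ankrd55 and Gria3 were under background on all 6 activated arrays. Of the other 8, 7 were below 0 after activation, with a median of -0.23 against -0.41 in native cells. Below 0 were also 7154 of the 10573 genes. Leaving out activated KO array 3 gave 6 of the 8 and 2865 of the 10573 genes, so this share turned with the array as well. Cpm differed by -0.71 ± 0.22. Itgae differed by -0.15 ± 0.40 and lay above background on 2 of the 6 activated arrays, and Ccr9 was under background on all 6. A test of the difference between the states called 0 of 19938 genes (0%), and so did the comparison of the activated groups (0%), by limma over all 12 arrays. The unadjusted p of that test was under 0.05 for 86 genes (3 of the 14: Retnlg, Jchain and Ceacam1, which were under background on all 6 activated arrays) and for 414 without activated KO array 3, where 0 were called as well. With these arrays a difference between native and activated cells in the effect of genotype was not detectable after adjustment.

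**Figure D5:**
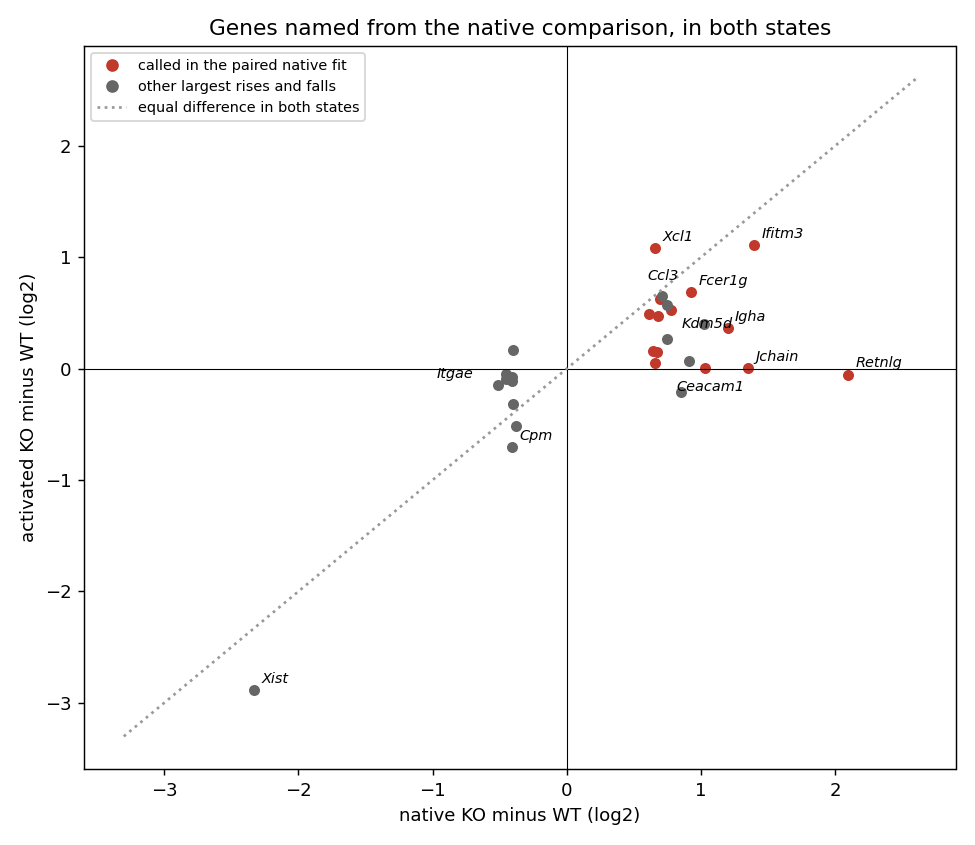
Log2 difference KO minus WT in native cells (x axis) and in activated cells (y axis) for the 14 genes called in the paired native fit (red) and the other genes with the largest native differences in either direction (grey); the dotted line marks equal differences. Retnlg, Jchain and Ceacam1 lie near 0 on the y axis, and Ifitm3, Xcl1 and Fcer1g are above 0 on both axes.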

How the data were processed

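RNA of 12 samples was labelled and hybridised to whole-transcript arrays, per the labels' protocols. The authors deposited log2 expression values. The submitters' processing notes name Partek and RMA without versions or options. RMA compresses differences near background. The table held 35556 transcript clusters; 21789 had a single symbol, 1621 several and 12146 none. Symbols were updated through Entrez identifiers to the GRCm38.p6 gene table (21698 matched), and of several rows of a gene the brightest over all 12 arrays was used (19938 genes). Among the called genes, Ifitm2 had 3 rows and Igha 2, and values of their other rows are not given. Listed genes without a row of a single symbol were not analysed here.

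Native KO and WT were compared with limma 3.58.1 in R 4.3.3 (lmFit, eBayes) on the 6 native arrays, with Benjamini-Hochberg adjustment over all genes. Standard errors are those of this fit. A paired fit took the replicate number of the titles as a block: deviations from the group means correlated at 0.580, 0.396 and 0.157 for same-numbered native arrays and at -0.505 to 0.130 for others. In the sample records, native KO and WT arrays of replicates 1, 2 and 3 share the experiment numbers 1, 3 and 5. The labels do not say further what a number marks. The test of the states used all 12 arrays. A gene with 1 group at background on all 3 arrays is given by the bound from the background level. The fits were also run on simulated data with planted differences larger than many described here, and no result rests on those runs.

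Described genes were Aire and its 3 measured neighbours per side, genes called in either fit, the 10 largest differences in each direction among genes above background with groups apart, up to 4 members of each list with the largest differences, and Xist and Y-linked genes; a few further list members are given as levels. The 32 lists (508 genes, 443 measured) are described and not tested. The members and lists were chosen with earlier results of these data known. Array number limits the precision.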

Additional observations from a re-analysis of the deposited data

How the results depend on the processing

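The count of genes called between native KO and WT cells was 0 in the fit of the 6 native arrays, over all 12 arrays, over all 12 with the replicate block, after quantile normalization, after centring, without dim genes, with the mean of a gene's rows and over all transcript clusters. It was 14 with the replicate number as a block, which changed the call of these 14 genes, and 2 (Ceacam1 and Igha) with a trended, robust variance. The runs with other normalization, without dim genes, with mean rows, over all clusters and with that variance were unpaired. The paired fit of the 6 native arrays was not repeated under those settings. Leaving out single arrays gave 0 to 11; the 11 came without KO array 2 and shared Ceacam1 and Retnlg with the 14, and 1 gene, Retnlg, was called without WT array 1. Leaving out the arrays of 1 replicate number in the paired fit gave 8 to 155, from 2 pairs each: 8 without replicate 1, 155 without replicate 2 (147 higher, 8 lower) and 111 without replicate 3 (94 higher, 17 lower). The count for the difference between the states stayed at 0 without activated KO array 3, after quantile normalization and with the block. Counting the activated differences of called genes without activated KO array 3, and over genes with signal there, was chosen after seeing the data. None of the differences of the 78 followed genes changed sign under any alternative run. Most of these genes were named for a call, for groups apart or for the largest differences of a list, and the runs reuse the same arrays. Stable signs were therefore likely beforehand and are no separate support. Genes with differences below their errors, such as Prf1, Foxp3 and Ikzf2, were not followed. For the 78 genes, 103 values passed the threshold in an alternative where they had not before. Of 384 alternative list medians 71 moved by more than the standard deviation of the 3 pairs. Values near background are compressed on these arrays and limit the sizes given for neutrophil, myeloid and antibody transcripts.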

Other observations

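Immediate early genes, which respond to stimulation within minutes and also to cell handling, followed the replicate number more than the genotype. The mean level of the 19 measured genes was 9.32 on KO array 1 and 9.31 on WT array 1, 10.27 and 9.97 on the arrays of replicate 2, and 9.93 and 9.74 on those of replicate 3. Atf3 lay at 7.04, 9.46 and 8.33 on KO arrays 1, 2 and 3 and at 6.61, 8.39 and 7.41 on WT arrays 1, 2 and 3, so that the range within a group was wider than the difference of 0.80 ± 0.57 (0.21 without KO array 2). Nr4a1, an early factor downstream of the T cell receptor, was nearly equal on the arrays of replicate 1 (9.97 in both groups) and differed by 0.37 ± 0.42, with 0.02 without KO array 2 and 0.90 without KO array 1. Of the 19 genes 17 had a difference above 0; the list median was 0.14, with -0.06 without KO array 2 and 0.36 without KO array 1. Ifng had the same order of replicate numbers in both groups, with replicate 2 highest and replicate 1 lowest.

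Red cell and platelet markers were above 0 in difference for 8 of 10 measured genes, with a median of 0.22 that was 0.04 without WT array 2. Slc4a1, the anion exchanger of red cells, lay at 9.26, 8.74 and 9.65 on KO arrays 1, 2 and 3 and at 9.04, 7.46 and 8.65 on WT arrays 1, 2 and 3. WT array 2 was the lowest, and the difference of 0.83 ± 0.36 was 0.37 without it. Cell cycle genes had a difference above 0 in 25 of 27 cases with a median of 0.14, or 0.06 without KO array 3. Mki67, a marker of dividing cells, lay at 9.05, 8.77 and 9.45 in KO and 8.91, 8.82 and 8.43 in WT cells (0.37 ± 0.18, and 0.19 without KO array 3), Cdk1 differed by 0.38 ± 0.20 (0.24 without KO array 3) and Rrm2 by 0.35 ± 0.14 (0.22 without it). Metabolic genes stayed near WT, with medians of 0.05 for 13 glycolysis genes, -0.06 for 15 cholesterol synthesis genes and 0.05 for 22 ribosomal proteins.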
